A study of Mus musculus with 56 samples.

Results

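The lungs of male MutaMouse animals that received the lowest dose of chrysene (D1) were compared with those of mice that received the vehicle (D0). The comparison used 10 of the 56 arrays of the series and 10 of its 18 lung arrays, 5 per group, chosen by the tissue and dose in the sample titles. MutaMouse is a transgenic strain that carries a lacZ reporter for scoring mutations, and every mouse of both groups carried it. Mice of about 14 weeks were gavaged daily for 28 days, with the olive oil vehicle at D0 and with chrysene in olive oil at 17.5 mg/kg-bw/day at D1. The lungs were taken 72 h after the last dose, so the arrays show what remained at that time and not the response on the days of dosing. RNA came from a random section of the right lung, 1 array per mouse. D0 was mice 1 to 5 and D1 was mice 6 to 10. The other lung arrays came from mice that received 50 (D2, 3 mice) or 150 mg/kg-bw/day (D3, 5 mice). They entered the same fit and share the D0 arrays as controls. In the series 49286 gene names were on the array, of which 26927 were tested in lung, through 31496 probes. These names count each probe without a symbol as a name of its own. Genes with a symbol numbered 20018 on the array, and 14771 of them were tested.

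Chrysene is a polycyclic aromatic hydrocarbon of fused benzene rings. Such compounds bind the aryl hydrocarbon receptor (AhR), which moves to the nucleus, pairs with Arnt and binds a short DNA core near its target genes. The best known targets are the monooxygenases Cyp1a1, Cyp1a2 and Cyp1b1, which oxidize the compound to reactive forms, and Ahrr, a repressor that closes the loop by competing with AhR for Arnt. The question of the comparison was which lung transcripts differed at the lowest dose once dosing had stopped.

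All values below are log2 ratios of lung RNA over a universal mouse reference RNA, and a difference is the D1 mean minus the D0 mean on that log2 scale. A gene was called where limma gave a p of at most 0.05 after Benjamini-Hochberg adjustment and the fold change reached 1.5. No gene was called at D1, which is 0% of the 31496 probes, and the smallest adjusted p was 0.129. The unadjusted limit, a limma p of 0.05 or less without adjustment, was met by 1851 probes, 5.88% of those tested, of which 959 were higher at D1 (3.04%) and 892 lower (2.83%). This near-even split depends on the normalization: with median centring in place of loess 32.8% were higher and 0.283% lower. The 5 D1 arrays all lay above the 5 D0 arrays for 222 probes (0.705%) and all below for 220 (0.699%). A fold change of at least 1.5 was found for 39 higher probes (0.124%) and 74 lower ones (0.235%). Differences were small, with a median absolute difference of 0.08, and 99.5% of the probes differed by less than 0.5. Reduced to 1 probe for each of 14771 genes with a symbol, 443 genes (3%) were higher and 305 (2.06%) lower at the unadjusted limit. Of these 14771 genes, 110 (0.745%) had all D1 arrays above all D0 arrays and 79 (0.535%) all below.

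**Figure D1:**
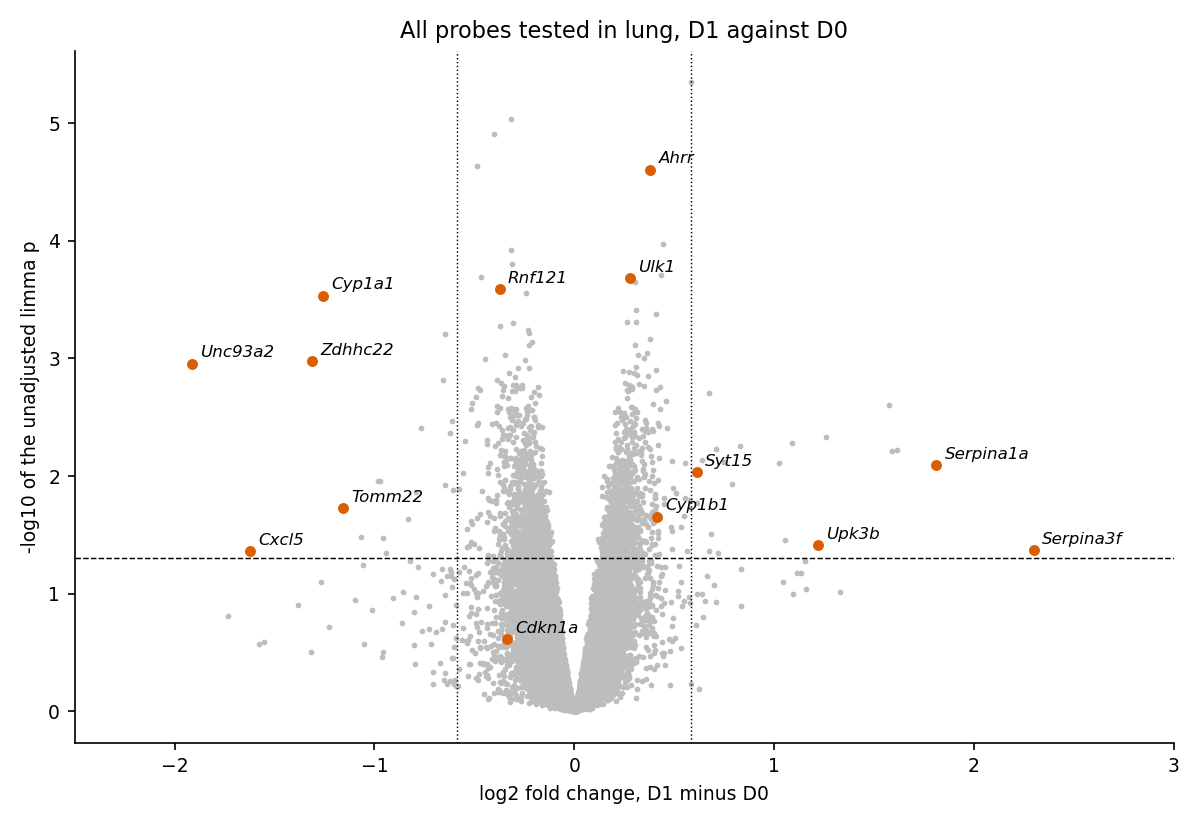
Difference between D1 and D0 in lung (x axis, log2 scale) against the -log10 of the unadjusted limma p (y axis) for the 31496 probes tested. The dashed line is at an unadjusted p of 0.05 and the dotted lines at a fold change of 1.5, and the named genes in orange lie at the edges of a cloud in which no probe passed the adjusted limit.

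The arrays were not even in signal. A high percentile of the lung channel signal lay at 4504, 4515 and 4780 in D0 mice 3, 4 and 5. It lay between 5797 and 6900 on the D1 arrays, and D0 mice 1 and 2 were within that range. The lung channel was thus dimmer in D0 mice 3, 4 and 5. D0 mouse 4 also had the most non-uniform spots, 17, and the lowest share of probes well above background, 49%. Between 49% and 53.9% of the probes were well above background in the lung channel at D0 and between 52.3% and 55% at D1. D0 mouse 5 stood apart: its median correlation with the other D0 arrays was 0.958 against 0.972 to 0.974 for the rest, and the first principal component (25.2% of the variance) separated it from the others. Its leading genes were Saa3, Clca1, Reg3g, Cxcl5 and Bpifa1, known from acute-phase, mucous and airway responses, and the atrial genes Sln, Myl7 and Myh6. On all 3 slides the D0 arrays lay in column 1 and the D1 arrays in column 2, so the array column and the dose cannot be told apart. Slide 1 held 2 D0 and 2 D1 arrays, slide 2 held 1 and 2, and slide 3 held 2 and 1. Differences within slide 2 thus rest on D0 mouse 4 alone, and those within slide 3 on D1 mouse 10 alone. D0 mice 3 and 5 were both on slide 3, which was scanned on another date than slides 1 and 2. As expression was measured in pieces of whole lung, fewer cells of a type and less RNA per cell cannot be told apart either.

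Of the AhR target genes, 3 reached the unadjusted limit, in opposite directions. Of 12 listed targets 11 were tested. Ahrr and Cyp1b1 were higher (18.2%, against 3% of all genes with a symbol) and Cyp1a1 lower (9.09%, against 2.06%) at D1. None of the 3 passed the adjusted limit. The 18.2% counts Ahrr, which the dosed groups alone brought into the test, so this share is not read as a result. The median difference of the 11 genes was -0.04 against 0.006 over all genes, and 5 of the 11 were higher.

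Ahrr (NM_009644, chromosome 13) was a dim probe. It was well above background on 0 of the 5 D0 arrays and on all 5 D1 and all 8 D2 and D3 arrays, so the dosed groups alone brought it into the test. The D0 level is a bound, and the fold is at least 1.26. Its log2 ratio was -0.77, -0.61, -0.85, -0.85 and -0.73 in D0 mice 1 to 5 and -0.39, -0.54, -0.29, -0.40 and -0.29 in D1 mice 6 to 10. The groups did not overlap. The measured means were -0.76 ± 0.10 (SD, n = 5) and -0.38 ± 0.10 (n = 5), a difference of 0.38 (SE 0.067), with an adjusted p of 0.157. That difference is set against D0 spots not well above background, and so are its error and p. Weighting the arrays by quality brought the adjusted p of Ahrr to 0.0484, with the fold still under 1.5. Among the dosed groups, where the probe was measured on every array, the direct comparison of D3 with D1 gave 0.06 (SE 0.067, adjusted p = 0.730) and that of D2 with D1 gave 0.01 (SE 0.077).

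Cyp1a1 (NM_009992, chromosome 9), the main enzyme of the lung that oxidizes compounds like chrysene, was on the other side. Its log2 ratio was 1.21, 1.12, 2.99, 1.25 and 1.75 in D0 mice 1 to 5 and 0.46, 0.43, 0.31, 0.01 and 0.81 in D1 mice 6 to 10. Every D1 mouse lay below every D0 mouse, and D0 mouse 3 was the highest of all. The means were 1.66 ± 0.78 at D0 and 0.40 ± 0.29 at D1, a difference of -1.26 (SE 0.279, adjusted p = 0.615). The probe was well above background on 5 D0 and 3 D1 arrays. The difference came from the lung channel (-1.27) and not the reference channel (0.06). Without mouse 3 the difference was -0.92 with an adjusted p of 0.450, and without mouse 5 it was -1.24. Within the slides it was -0.72, -1.09 and -1.56. D2 and D3 differed from the same D0 arrays by -0.993 and -0.998, with group means of 0.67 ± 0.28 (n = 3) and 0.66 ± 0.29 (n = 5). In the liver of the same mice Cyp1a1 was well above background on 2 D0 and 0 D1 arrays. In the forestomach it was well above background at D1 in mouse 8 alone, at 3.58, against 0.06 to 0.44 in the other D1 mice.

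Cyp1b1 (NM_009994, chromosome 17), another enzyme that oxidizes such compounds, was -1.93, -1.40, -1.90, -2.08 and -1.31 at D0 and -1.17, -1.50, -1.07, -1.27 and -1.56 at D1. The groups overlapped, through D0 mice 2 and 5. The difference was 0.41 (SE 0.164, adjusted p = 0.832). Its slide values of 0.33, 0.91 and 0.05 spread widely. Leaving out 1 mouse gave from 0.32 (without mouse 4) to 0.51 (without mouse 5, adjusted p = 0.758), and the unadjusted limit was missed without mouse 1, 3, 4, 6 or 8. D2 and D3 lay 0.20 and 0.34 above D0.

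The remaining targets showed no such separation. Tiparp, an ADP-ribosyltransferase that dampens AhR, was -0.71 ± 0.12 at D0 and -0.71 ± 0.07 at D1, a difference of 0.006 (SE 0.078), and its second probe differed by -0.16 (SE 0.094). Nqo1, a quinone reductase, differed by -0.12 (SE 0.205), and Aldh3a1, an aldehyde dehydrogenase, by -0.30 (SE 0.562). At D3 Nqo1 was -0.91 ± 0.58, which is 0.67 above D1 (SE 0.205, adjusted p = 0.362). Cyp1a2 was well above background on 0 lung arrays and was not tested. In the receptor complex, Ahr itself was 1.78 ± 0.48 at D0 and 2.06 ± 0.09 at D1, a difference of 0.28 (SE 0.218, adjusted p = 0.908). Its partner Arnt differed by -0.09 (SE 0.089) and the cochaperone Ptges3 by -0.12 (SE 0.127).

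**Figure D2:**
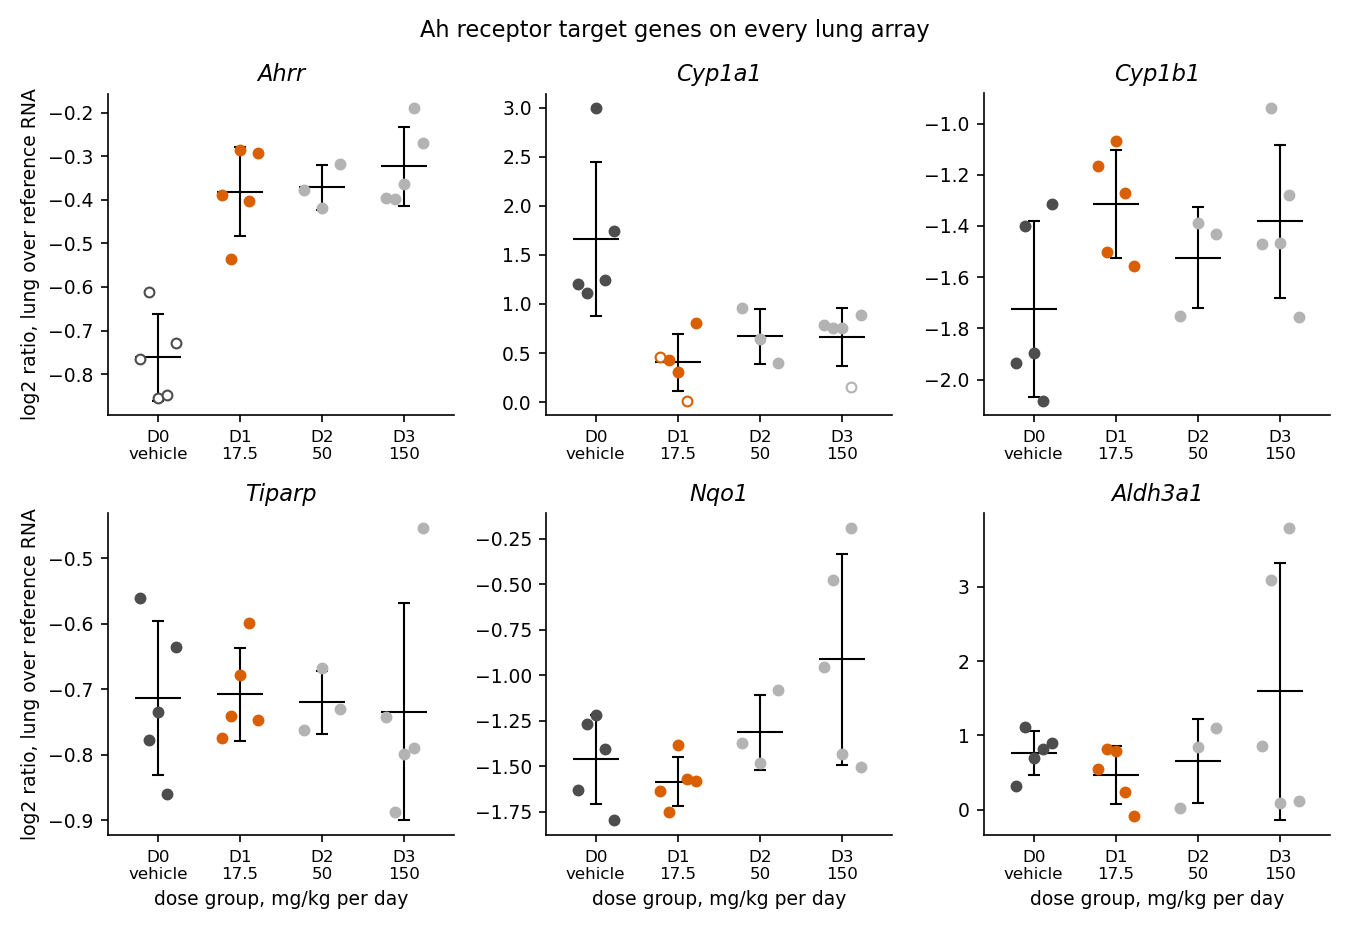
Log2 ratio (lung over reference RNA) of 6 AhR target genes on every lung array by dose group (mg/kg per day), with filled points for spots well above background, open points for spots that were not, and bars for the mean and SD. Ahrr lay higher and Cyp1a1 lower on every D1 array than on every D0 array, and the other 4 genes overlapped.

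The promoters of the 3 target genes that reached the unadjusted limit are printed from RefSeq (build GRCm38.p6), since the genes lay in opposite directions and each can be read for the core GCGTG that AhR and Arnt bind. Each run is 300 bases, 250 before and 50 after the start, 5′ to 3′ on the gene's strand. Capitals mark GCGTG or its reverse complement CACGC.
Ahrr promoter, chr13:74292282-74292581, minus strand: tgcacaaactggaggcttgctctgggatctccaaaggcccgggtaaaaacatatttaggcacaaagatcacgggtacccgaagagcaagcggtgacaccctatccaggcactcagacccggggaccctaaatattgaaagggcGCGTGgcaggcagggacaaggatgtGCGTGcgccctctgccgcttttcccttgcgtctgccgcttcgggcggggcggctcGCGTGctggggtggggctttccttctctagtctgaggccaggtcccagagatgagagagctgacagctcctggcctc
Cyp1a1 promoter, chr9:57697363-57697662, plus strand: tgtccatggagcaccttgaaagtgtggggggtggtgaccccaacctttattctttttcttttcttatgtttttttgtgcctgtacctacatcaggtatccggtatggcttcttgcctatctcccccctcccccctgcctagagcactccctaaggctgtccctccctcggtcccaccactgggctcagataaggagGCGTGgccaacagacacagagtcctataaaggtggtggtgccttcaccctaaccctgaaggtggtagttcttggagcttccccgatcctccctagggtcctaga
Cyp1b1 promoter, chr17:79715012-79715311, minus strand: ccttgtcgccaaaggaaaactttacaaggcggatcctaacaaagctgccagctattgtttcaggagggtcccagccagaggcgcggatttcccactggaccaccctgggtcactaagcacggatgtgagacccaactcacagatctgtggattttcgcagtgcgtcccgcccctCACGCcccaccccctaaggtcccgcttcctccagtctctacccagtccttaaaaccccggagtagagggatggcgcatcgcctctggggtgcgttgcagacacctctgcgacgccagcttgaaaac
Ahrr holds the core 3 times, between bases -107 and -27 from the start. Cyp1a1 holds it once, at -54, and Cyp1b1 holds the reverse complement once, at -76. Of 32851 promoters of the same length 32.4% hold at least 1 core on either strand, and 3.91% hold 3 or more. Among the 12 AhR targets 10 had a promoter in the table and 5 of these held the core, Tiparp and Selenbp1 being the other two. A match is a description of these windows and not a binding site.

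Genes were also named by a rule that asked for a fold change of at least 1.5, the unadjusted limit and no overlap between the groups, on probes well above background throughout the higher group. It named 3 genes: Cyp1a1, Syt15 and Tomm22. Syt15 (NM_181529, chromosome 14), a synaptotagmin of vesicle traffic, was 3.07, 2.97, 2.61, 3.09 and 2.95 in D0 mice 1 to 5 and 3.78, 3.66, 3.34, 3.17 and 3.81 in D1 mice 6 to 10. On this probe every D1 mouse lay above every D0 mouse, and D1 mouse 9 was the nearest to D0. A second tested probe of Syt15 (NM_176931) had overlapping groups and differed by 0.12 (SE 0.087, adjusted p = 0.901). The difference was 0.61 (SE 0.210, adjusted p = 0.759), and it was 0.53 without mouse 3. Within the slides it was 0.70, 0.16 and 1.03. D2 and D3 differed from the same D0 arrays by 0.17 and 0.02, and D3 minus D1 was -0.60 (SE 0.210, adjusted p = 0.362). On the first probe Syt15 was thus highest at the lowest dose, a difference between doses that did not pass the test.

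Tomm22 (NM_172609, chromosome 15), part of the mitochondrial import pore, took separate levels among the vehicle mice. Its log2 ratio was -1.12 and -0.94 in D0 mice 1 and 5 and 0.56, 0.46 and 0.86 in D0 mice 2, 3 and 4. All D1 mice lay between -1.28 and -1.13. The difference was -1.16 (SE 0.446, adjusted p = 0.826), and without mouse 4 it was -0.93 and missed the unadjusted limit. The same 3 mice were high in their livers, at -0.29, -0.20 and -0.30 against -1.24 to -1.10 in the other 7 mice. Of the 8 D2 and D3 lungs 2 were above 0. In the forestomach D0 mice 2 and 4 were the highest, at 1.28 and 0.95, and D0 mouse 3 was at 0.07. The level of this probe thus followed the mouse in lung and liver, and both levels occurred within D0.

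Because so few genes met the rule, the genes with the smallest p among those whose groups did not overlap were read without the fold limit, a step added after the values had been seen. With the other conditions of the rule kept, there were 91 such genes higher and 70 lower, counting a gene if any of its tested probes qualified. Over all 31496 probes, no overlap alone was met by 222 (0.705%) and 220 (0.699%). With only the brightest probe of each gene it was met by 110 (0.745%) and 79 (0.535%) of 14771 genes. The 91 and 70 are on another base and are not a part of the 110 and 79. Of the 91 and the 70, the 10 with the smallest p in each direction were taken. They include Ahrr, described above, and Ulk1, the kinase that starts autophagy. Ulk1 was -0.11, 0.04, -0.17, -0.22 and -0.15 at D0 and 0.08, 0.14, 0.19, 0.17 and 0.21 at D1, a difference of 0.28 (SE 0.060, adjusted p = 0.584). It differed from D0 by 0.22 at D2 and by 0.29 at D3. Prkag3, a regulatory subunit of AMP-activated kinase, was 0.71 ± 0.11 at D0 and 1.12 ± 0.08 at D1, a difference of 0.41 (SE 0.094), of which 0.19 lay in the lung channel and -0.19 in the reference channel. Cyp4f13, a fatty acid hydroxylase, differed by 0.31 (SE 0.080), and the glycosyltransferase B3gnt8 by 0.41 (SE 0.107). Abca2, a lipid transporter, differed by 0.25 (SE 0.064) and Eps8l2, an actin-binding protein, by 0.31 (SE 0.075). Airn, the imprinted RNA antisense to Igf2r, differed by 0.37 (SE 0.098), with 0.09 in the lung channel and -0.26 in the reference channel. Klrg2 differed by 0.32 (SE 0.087). The testis kinase Tssk3 was well above background on 0 D0 arrays and 5 D1 arrays, a fold of at least 1.10. It was well above background on 0 of the D2 and D3 lungs, so its D1 arrays alone brought it into the test.

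On the lower side Rnf121, a membrane ubiquitin ligase, was -0.64, -0.56, -0.51, -0.49 and -0.79 at D0 and -0.87, -0.96, -1.16, -0.86 and -0.995 at D1. The difference was -0.37 (SE 0.082, adjusted p = 0.615), and D2 and D3 lay -0.39 and -0.27 from D0. Psmd12, a proteasome subunit, differed by -0.31 (SE 0.083), and Fip1l1, of the mRNA polyadenylation complex, by -0.31 (SE 0.085). Mfap1b, a splicing factor, was 0.74 ± 0.22 at D0 and 0.23 ± 0.32 at D1, a difference of -0.51 (SE 0.144). Within the slides it was -0.61, -0.59 and -0.59. Erlin1 of the endoplasmic reticulum differed by -0.22 (SE 0.061) and the nucleoside transporter Slc29a2 by -0.23 (SE 0.066). Arl6ip6, Ccdc127 and Ccser1 differed by -0.24, -0.28 and -0.35. For Ccdc127 -0.13 lay in the lung channel and 0.12 in the reference channel, and for Ccser1 -0.19 and 0.15. For these 9 genes and the higher ones apart from Ahrr, the adjusted limma p lay between 0.584 and 0.741. None passed the adjustment over all probes, and the absence of overlap is what chose them.

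The largest differences were found in genes whose level varied strongly among mice of 1 group. The unadjusted limit together with a fold of at least 1.5 was met by 21 higher and 19 lower probes, of which 26 carried a symbol, for 23 genes. These 40 are out of 31496 probes tested, of which 39 (0.124%) were higher and 74 (0.235%) lower by that fold whatever their p. The groups did not overlap for 7 of the 40, against 0.705% of all probes with D1 above D0 and 0.699% with D1 below. The 40 were chosen by p and fold, which favour separated groups, so the 7 are not read as a result. These genes were singled out after their values had been seen.

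All 7 tested probes of Serpina1a to Serpina1e were among the 21. These genes encode alpha-1-antitrypsin, the inhibitor of neutrophil elastase made mainly by the liver. They lie side by side on chromosome 12 and are near-identical copies, so their probes cannot be counted as separate results. The brightest probe, for Serpina1a (NM_009243), was -0.08, 0.27, 2.03, 0.16 and 2.63 in D0 mice 1 to 5 and 3.103, 3.81, 2.81, 1.43 and 2.92 in D1 mice 6 to 10. D0 mice 3 and 5 reached the range of the D1 mice, and D1 mouse 9 lay within the range of D0. The difference was 1.81 (SE 0.607, adjusted p = 0.759). Across 6 of the 7 probes it ran from 1.03 to 1.81, but their D0 spots were partly dim: 2 of the 6 probes passed the background flag in 5 D0 mice, 2 in 4 mice and 2 in only 2 mice. The other probe, for Serpina1d, was well above background on 0 D0 arrays and 4 D1 arrays. Its fold is at least 1.5 if the remaining, dim D1 spot is taken as measured. Within the slides the Serpina1a probe differed by 3.36, 1.96 and 0.59, and without mouse 5 by 2.22. D2 and D3 differed from the same D0 arrays by 0.50 and 2.12. In the liver the probe was between 7.11 and 7.83 in all 10 mice. Of 9 listed hepatocyte markers 5 were tested in lung, and the median of these was 0.07. The 5 include the Serpina1a probe itself, and of the others Ahsg differed by 0.07, Apoa2 by 0.04 and Apob by -0.13. Alb was well above background on 0 D0 arrays and 1 D1 array, so no fold is given, and Apoa1 and Ttr were well above background on 0 lung arrays.

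Serpina3f, another serine protease inhibitor (chromosome 12), had the largest difference of all genes with a symbol, at 2.30 (SE 1.05, adjusted p = 0.833). Its values took separate levels. D0 mice 1 to 4 were at -1.12, -1.12, -0.84 and -1.01 and D0 mouse 5 at 4.18, while D1 mice 6, 7, 8 and 10 were at 3.47, 3.71, 2.65 and 2.76 and D1 mouse 9 at -1.01. The liver of the same mice showed the same split, with mice 5, 6, 7, 8 and 10 between 1.10 and 2.20 and mice 1, 2, 3, 4 and 9 between -1.16 and -0.37. In the liver the probe was well above background on 1 D0 and 5 D1 arrays, so the low values of the D0 mice there are not measured levels. In the forestomach all 10 mice were below 0, with 2 arrays well above background. Of the 8 D2 and D3 lungs 6 were above 0. The level of Serpina3f thus followed the mouse in lung and liver, and both levels occurred in both groups. Without mouse 5 the difference was 3.34 (adjusted p = 0.758).

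Among the lower genes Unc93a2 had the largest difference. It was 2.38, 3.26, 2.49, 2.42 and 0.31 in D0 mice 1 to 5 and between 0.06 and 0.45 in all D1 mice. Mouse 5 alone of the D0 mice reached the D1 level. The difference was -1.91 (SE 0.490, adjusted p = 0.741), and without mouse 5 it was -2.38 (adjusted p = 0.157). D2 and D3 differed from D0 by -1.82 and -1.18. The D3 mean covers separate levels: mice 17 and 19 were at 2.588 and 1.855, and mice 16, 18 and 20 at 0.258, 0.189 and 0.077. High and low levels thus occurred in both D0 and D3. In the liver Unc93a2 was between 0.77 and 1.26 in all 10 mice. Zdhhc22, a palmitoyltransferase, was 5.22, 6.37, 5.82, 5.58 and 4.06 at D0 and 3.81 to 4.33 at D1, and D0 mouse 5 was again at the D1 level. It differed by -1.31 (SE 0.334, adjusted p = 0.741), and by -1.65 without mouse 5 (adjusted p = 0.148). In the liver its means were 2.31 at D0 and 1.62 at D1. Cxcl5, a neutrophil chemokine, differed by -1.62 (SE 0.746) and rested on D0 mouse 5 at 2.12, while the other D0 mice lay between -2.99 and -0.60. Without mouse 5 it differed by -0.79, short of the unadjusted limit.

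The other symbols among the 40 probes were higher for Upk3b, Aldh1a2, Cldn15, Efhd1 and Pard3. They were lower for the receptor Ntrk2 (-0.83, SE 0.334), Anp32a (-0.98, SE 0.345), Zmym1 (-0.77, SE 0.231), Zbtb8os (-0.64, SE 0.229), Ccdc85a (-0.62, SE 0.189), the histone gene H1f1 (-0.61, SE 0.181) and 1500011B03Rik (-0.79, SE 0.288). H1f1 ranged from -3.27 to -2.09 at D0 and from -3.76 to -3.25 at D1, so that the groups touched at their edges. Ntrk2 ranged from 0.25 to 1.73 at D0 and from -0.20 to 0.64 at D1, with overlap.

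**Figure D3:**
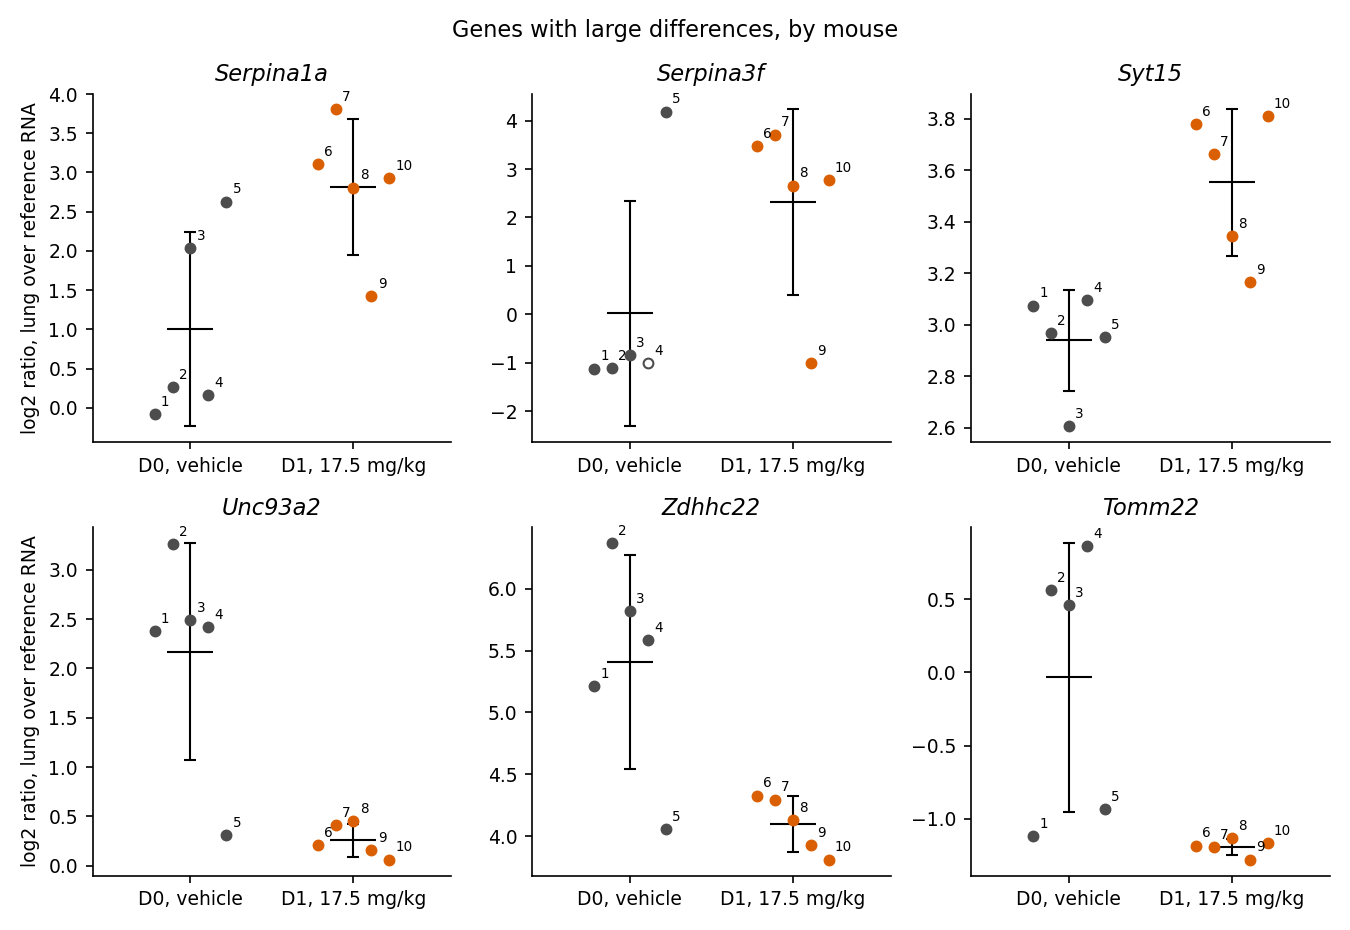
Log2 ratio (lung over reference RNA) of 6 genes in each D0 and D1 mouse, numbered by mouse, with the mean and SD. Syt15 and Tomm22 did not overlap between the groups, D0 mouse 5 lay at the level of the D1 mice for Unc93a2 and Zdhhc22 and above all of them for Serpina3f, and Serpina3f and Tomm22 took separate levels within D0.

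Gene lists for responses and cell types were described by their counts and medians. Over 42 lists (21 of responses and 21 of cell types), 513 genes were tested and 15 reached the unadjusted limit, 12 higher and 3 lower. That is 2.92% against 5.06% of all genes with a symbol. A share of 52.5% of all genes was higher at D1, with a median difference of 0.006. Leaving out 1 mouse moved the median by over 1.5 times or turned its sign for 37 of the 42 lists, many of them with medians near 0. The AhR targets had 3 of these 15 genes. As 1 of them is Ahrr, whose p is set against D0 spots not well above background, the lists were not ranked by this count.

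In the genotoxic response few genes stood out. Of 24 p53 targets 23 were tested, 10 were higher, 0 reached the unadjusted limit and the median was -0.02. Cdkn1a, the cell cycle inhibitor p21, was -1.22, -0.94, 0.39, -1.31 and -1.07 at D0 and -1.44 to -0.92 at D1, a difference of -0.33 (SE 0.278, adjusted p = 0.915). A second probe of Cdkn1a (NM_001111099) differed by 0.06 (SE 0.072). On the first probe D0 mouse 3 lay far above the other 4, and without it the difference was -0.03. Mdm2, which degrades p53, differed by -0.01 (SE 0.070) and Ccng1 by 0.09 (SE 0.198). Among 30 tested genes of DNA repair and translesion synthesis the median was 0.01. Of 21 apoptosis genes Casp8 alone reached the unadjusted limit, with 0.27 (SE 0.126, adjusted p = 0.833). The 22 tested proliferation genes had a median of -0.07 (0.05 without D0 mouse 5) and 7 were higher. Pcna, the replication clamp, differed by 0.15 (SE 0.078) and Ube2c by -0.23 (SE 0.139).

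The genes of detoxification outside the Cyp1 family had 0 of 25 at the unadjusted limit and a median of -0.02. The NRF2 targets of the antioxidant response had a median of -0.07, and 4 of 16 were higher. Slc7a11, the cystine transporter, was well above background on 2 D0 arrays and 0 D1 arrays, so neither group mean is a measured level and no fold is given. Gsta4 differed by -0.22 (SE 0.176). The list level of the NRF2 targets, its mean on each array relative to the D0 mean, was -0.08 to 0.08 at D0 and -0.16 to -0.003 at D1, with overlap.

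The stress hormone and clock genes varied with single mice. The 10 glucocorticoid-responsive genes had a median of -0.36, and 1 was higher. D0 mouse 3 lay at 0.90 on this list against -0.68 to 0.18 in the other D0 mice and -0.58 to -0.09 in D1, and without it the median was -0.16. Tsc22d3 was 2.08 ± 0.86 at D0 and 1.60 ± 0.31 at D1 (difference -0.48, SE 0.308), and Zbtb16 differed by -0.76 (SE 0.580). Heat shock proteins were high in 1 mouse of each group, at 0.87 in D0 mouse 2 and 1.14 in D1 mouse 7 against -0.48 to -0.13 elsewhere. Of the clock genes Dbp ranged from -1.95 to 0.42 at D0 and from -1.89 to 1.21 at D1 and differed by 0.34 (SE 0.559). Per1 differed by -0.31 (SE 0.425), which was -0.05 without D0 mouse 3, and Arntl by -0.04 (SE 0.333).

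Immune and inflammatory lists lay on both sides of the 52.5% of all genes that were higher. The 23 tested chemokine ligands had a median of -0.22, 8 were higher, and Cxcl5 alone reached the unadjusted limit. Cxcl1 differed by -0.67 (SE 0.356) and Ccl12 by -0.52 (SE 0.283). D0 mouse 5 was at 0.82 on this list and the other D0 mice between -0.31 and 0.08, and without it the median was -0.04. The 21 interferon-responsive genes had a median of -0.04 and the 17 complement genes one of 0.03. Of 9 MHC class II genes 7 were higher with a median of 0.15 (0.084 without D1 mouse 7), and Cd74, the invariant chain, was 3.53 ± 0.17 at D0 and 3.84 ± 0.21 at D1 (difference 0.31, SE 0.126, adjusted p = 0.832). B cell markers were higher in 8 of 9 genes with a median of 0.13, led by Cr2 at 0.45 (SE 0.255), but the median was 0.009 without D0 mouse 3. T cell markers were higher in 2 of 11 with a median of -0.16. Neutrophil and macrophage markers had medians of -0.10 and -0.05.

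Among structural genes Sparc, a matrix glycoprotein, was 1.90 ± 0.19 at D0 and 2.23 ± 0.08 at D1, a difference of 0.33 (SE 0.138, adjusted p = 0.833). Col6a1 differed by 0.28 (SE 0.129) and Col6a2 by 0.29 (SE 0.144). Of the 24 matrix genes 16 were higher, with a median of 0.14 that was 0.04 without D0 mouse 2. The 22 focal adhesion genes had a smaller median of 0.07 but 18 of them were higher, among them the kinase Src at 0.22 (SE 0.104). Angiogenesis genes had a median near 0 (-0.003), and those of cholesterol and fatty acid synthesis one of -0.03.

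The markers of lung were high on these arrays. Sftpc, the surfactant protein of alveolar type 2 cells, was 8.25 ± 0.47 at D0 and 8.43 ± 0.30 at D1, and Scgb1a1, the secretoglobin of club cells, was 8.92 ± 0.36 and 9.00 ± 0.32. Sftpc was well above background on 0 of the 10 liver and 0 of the 10 forestomach arrays of these mice. Scgb1a1 was well above background on 0 liver arrays but on all 10 forestomach arrays, at means of 4.75 in D0 and 5.00 in D1, lower than in lung. Of 10 alveolar type 2 markers 9 were higher with a median of 0.14 (0.085 without D0 mouse 3), and the transcription factor Etv5 reached the unadjusted limit with 2.10 ± 0.27 at D0 and 2.59 ± 0.28 at D1 (difference 0.49, SE 0.162, adjusted p = 0.759). Alveolar type 1 markers had a median of 0.09 (0.03 without D0 mouse 5) and endothelial markers one of 0.003.

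The airway lists had negative medians, but not within every slide. Of 7 club cell and airway secretory markers 1 was higher, and the median was -0.80. The list level was 0.94 and 1.55 in D0 mice 4 and 5, against -1.11 to -0.58 in the other D0 mice and -1.001 to -0.42 in D1. The median was -0.30 without mouse 5 and -0.32 without mouse 4, and within the slides it was 0.13, -2.13 and -0.55. Bpifa1 and Reg3g differed by -1.58 (SE 1.37) and -1.55 (SE 1.32), with D0 SDs of 2.46 and 2.71. Of 9 ciliated cell markers 2 were higher with a median of -0.16, which was 0.08, -0.35 and -0.45 within the slides. Foxj1, the master regulator of motile cilia, was 3.66 ± 0.25 at D0 and 3.19 ± 0.30 at D1 (difference -0.47, SE 0.187, adjusted p = 0.832).

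Mesothelial markers had the largest median of any list. All 6 were higher, with a median of 1.09. Upk3b was 1.48, -1.68, -1.11, -0.61 and 0.10 in D0 mice 1 to 5 and 1.36, -0.02, -0.54, 1.20 and 2.27 in D1 mice 6 to 10 (difference 1.22, SE 0.545, adjusted p = 0.833). Wt1 differed by 1.16 (SE 0.556) and Msln by 1.13 (SE 0.580). The 6 markers were all well above background in each D1 lung. The list level ranged from -1.01 to 1.35 at D0 and from -0.11 to 1.94 at D1, so that D0 mouse 1 lay within the upper D1 values. Aldh1a2 and Cldn15, which are not in the list, differed by 1.06 (SE 0.462) and 0.68 (SE 0.309) and were likewise high in D0 mouse 1. The mesothelium covers the lung surface, and how much of it each section held was not analysed here.

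Cardiac muscle markers, whose genes the pulmonary veins of mice express, ranged from -1.65 to 1.45 at D0 and from -1.56 to 1.12 at D1, with a median of -0.32. Without D0 mouse 3 that median was 0.04 and without D1 mouse 6 it was 0.06, and within the slides it was 0.68, -0.76 and -1.87. Adipocyte markers had a median of -0.30, which was -0.02 without D0 mouse 4 and 0.28 within slide 1. Smooth muscle markers had a median of -0.12, which was -0.01 without D1 mouse 10. Erythroid markers had a median of 0.05, and the globin gene Hbb-bt was 5.88 ± 0.28 at D0 and 6.43 ± 0.32 at D1 (difference 0.55, SE 0.217, adjusted p = 0.832).

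**Figure D4:**
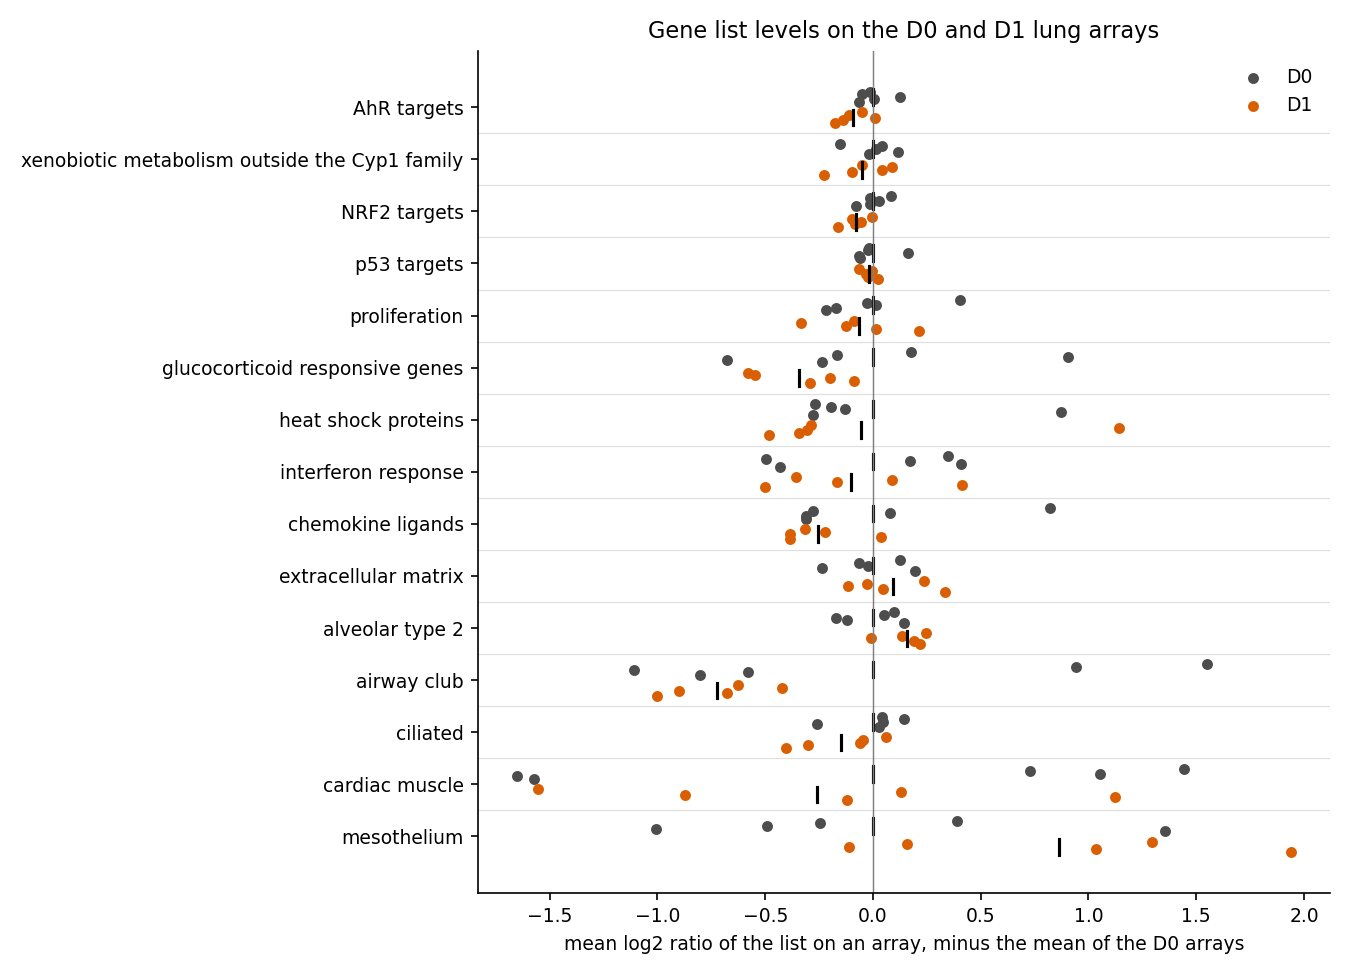
Mean log2 ratio of 15 gene lists on each D0 and D1 lung array relative to the mean of the D0 arrays (x axis), with a black line at each group's mean. The groups overlapped for every list plotted, and the widest ranges belonged to the cardiac muscle, airway club and mesothelium lists.

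D1 was also set against the higher doses directly. These differences do not use the D0 means, although the D0 arrays enter the shared estimate of the spread. Between D2 and D1 no gene was called (0%), and 1153 probes (3.66%) reached the unadjusted limit. Between D3 and D1 there was 1 called probe (0.00318%), and 4120 probes (13.1%) reached the unadjusted limit. The called probe has no gene symbol (array accession ENSMUST00000090438). D1 minus D0 was -0.49 (SE 0.085, adjusted p = 0.157) and D3 minus D1 was 0.70 (SE 0.085, adjusted p = 0.006198). From D0 to D1 this probe differed by -1.40 in the lung channel and by -1.005 in the reference channel, which holds the same RNA on every array. With median centring in place of loess it was not called, and 0 probes were.

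The D1 difference in lung was finally compared with that in the other tissues of the same mice. The difference between lung and liver was called for no gene (0%), with 662 of 32854 probes (2.01%) at the unadjusted limit. The difference between lung and forestomach was called for no gene (0%), with 1552 of 32699 probes (4.75%) at that limit and a smallest adjusted p of 0.413, for Grem1. Cyp1a1 differed by -1.26 in lung, and the difference of lung minus forestomach was -2.01 (SE 0.703, adjusted p = 0.965). That value rests on a probe that was well above background on 0 D0 and 1 D1 forestomach arrays. Ahrr, a bound in lung, was well above background on 4 forestomach and 0 liver arrays. Cyp1b1 differed by 0.31 in forestomach and by -0.18 in liver, where it was well above background on 3 D0 and 2 D1 arrays. For these 3 genes none of the differences between tissues passed the test, so none can be called particular to the lung.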

How the data were processed

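RNA of 1 mouse per array was hybridized in Cy5 beside a universal mouse reference RNA in Cy3, with no dye swap, on 2-colour Agilent arrays. Per the file headers, the deposited scanner files hold median intensity values from Feature Extraction 10.7.3.1 and flags of 0 or 1 for spots well above background. The authors also deposited 1 log2 ratio per probe and array, normalized array by array with LOWESS, with no background subtracted, and these ratios were used. In lung they correlated at 0.993 to 0.998 with loess ratios computed here from the intensities. No column of values was unused (0). Genomic build of the probes is not given in the sources used here.

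Probes well above background in Cy5 on at least 3 lung arrays were fitted with limma 3.58.1 (R 4.3.3, lmFit and eBayes, two-sided) over all 18 lung arrays, with 1 mean per dose. The study's methods name MAANOVA, which was not run. Its limits on FDR and fold were kept. The program was tested on simulated data. Tissues were compared over all 56 arrays. Of 55681 probes 26413 were named through RefSeq accessions, and 4114 with Ensembl accessions stayed unnamed. Lists used the brightest probe of a gene. Named genes were those past a fold of 1.5 and an unadjusted p of 0.05 whose groups did not overlap, up to 12 per direction, with fixed AhR, p53, clock and lung genes. A bound on a fold set the brighter group against the lowest signal well above background. For 1 gene of the DNA repair list the value is not reported here. The members, lists and rules were chosen with earlier results of these data known. Replicates were separate mice, and their number limits the precision.

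Mouse numbers pair tissues, since the tissues came from the same animals. Deviations from the group means correlated with those in lung at 0.03 to 0.22 in liver (7 of 10 mice matched themselves best) and at -0.06 to 0.09 in forestomach (2 of 10). D0 and D1 are different mice and are not paired. Alternatives were other normalizations, filters, weights, slide and mouse blocks, and leaving out each mouse.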

Additional observations from a re-analysis of the deposited data

Results flagged for a closer look

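Of 154 groups of 5 values examined, 15 held a mouse whose gap to its nearest neighbour exceeded 0.71 of the group's range (Dixon's criterion). For a single group of normally distributed values chance gives about 1 in 20. The 154 groups share mice and genes, and some genes were chosen because their groups did not overlap. The count of 15 is therefore not read against that rate. At D0, mouse 3 was high for Cdkn1a, at 0.393 against -1.31 to -0.94 in the others, and for the p53 target list, at 0.164, and low for the B cell list, at -0.392. D0 mouse 2 was high for heat shock proteins, at 0.872, and low for ciliated cell markers, at -0.262. D0 mouse 4 was high for Ccdc127, at -0.481. D0 mouse 5 was low for focal adhesion genes, at -0.096, and in its median correlation with the group, at 0.9584. At D1, mouse 7 was high for heat shock proteins, at 1.14, and for the AhR complex list, at 0.407, which includes the chaperones Hsp90aa1 and Hsp90ab1. Mouse 8 was high for Eps8l2, at 1.606, and mouse 6 low for Arl6ip6, at -1.282. Mouse 10 was low for alveolar type 1 markers, at -0.008, and smooth muscle markers, at -0.446, and mouse 9 was low for neutrophil markers, at -0.527.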

How the results depend on the processing

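No gene was called at D1 under any alternative except normexp background correction, which called 1 unnamed probe (0.59, SE 0.082, adjusted p = 0.0424). Of 147 values of counts 125 kept within 1.5 times. Of 742 values of single genes 684 kept their sign and stayed uncalled or, for values within a slide, lay within the group SD of the main value. Another 36, all within a slide, moved further, and 22 turned sign. As no gene was called in the main fit, staying uncalled does not show that the size of a difference held. Rnf121 is counted as staying although it was -0.05 with median centring, against -0.37. Median centring in place of loess moved the median of all probes to 0.22. It put 33.11% of the probes at the unadjusted limit, 99.1% of them higher (51.8% with the deposited ratios), named 53 genes in place of 3, brought list genes at that limit from 15 to 152, left 0 calls between D1 and D3, and gave 1.966% against forestomach. Centring also turned Nqo1 (0.1941), Aldh3a1 (0.05162), Cdkn1a (0.01543), Mdm2 (0.3207), Per1 (0.0349), Arntl (0.2769), Ccdc127 (0.0139), Psmd12 (0.02811), Fip1l1 (0.01222) and Erlin1 (0.1241). Of these Mdm2 and Arntl alone lay above that median of 0.22. List genes numbered 23 with normexp and 27 with the 10 arrays alone. Weights per tissue gave 4.544% against liver, and loess of the scanner signals called 1 gene against forestomach, Grem1 (-1.27). With the slide as a block Arntl was 0.03939 and Scgb1a1 -0.04962. The cause was not tested.

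Leaving out 1 mouse named 3 to 10 genes (10 without mouse 1, 8 without 5, 5 without 6, 7 without 7, 8 without 9, 5 without 10) and gave 7 (without mouse 3) to 30 (without mouse 1) list genes, with 26 without mouse 2 or 7. Tiparp ran from -0.03076 to 0.04418, Mdm2 from -0.04292 to 0.02419, Dbp from -0.04497 to 0.73, Arntl from -0.2206 to 0.1625 and Scgb1a1 from -0.0188 to 0.2081. Calls against liver ran from 0 to 1 and against forestomach from 0 to 2: without mouse 5 Unc93a2 passed in both (-2.201 and -2.463, adjusted p = 0.02447 and 0.002493) and Klhl18 (-0.79) against forestomach.

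With the mouse as a replicate block, 0 genes were called against liver (2.201% at the unadjusted limit) and 0 against forestomach (4.878%), so the paired fits changed no call. Signal over background limits the genes with spots not well above it on every D0 and D1 array, among them Ahrr, Cyp1a1, Tssk3, Slc7a11, Alb, Klrg2, Efhd1, Src, Wt1, Serpina3f and 5 of the 7 Serpina1 probes.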
